A study of Homo sapiens with 16 samples.

Results

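CU1ENC and CU1ENU are 2 of the 6 cloned transcripts of the human long non-coding RNA gene LINC01016 that were each expressed from a plasmid in HEK293 cells. The comparison here sets the 2 libraries of cells given CU1ENC against the 2 given CU1ENU, 4 of 16 libraries in the series. The libraries were chosen by group name in the sample titles and matched by replicate number, with no measured value used. The gene BCYRN1 was given beforehand as the marker of this comparison, with earlier results of these data known. Both groups are HEK293, an established human embryonic kidney line, transfected with 5 µg of pcDNA3.0 carrying the transcript by a lipid reagent in 60 mm plates and collected after 48 hours. Groups used for reference were cells given the empty vector or transcript T1, T2, CU1 or CU2 in the same way, and parental cells with no plasmid named in their titles, each with 2 libraries. The labels do not say how the CU1ENC and CU1ENU sequences differ, which promoter drove them, or what a replicate is (a separate culture or a repeat of other kind). The p-values below therefore speak of the variation among these libraries, and that variation may be technical. The submitters state that HEK293 cells do not transcribe LINC01016, so the transcripts were studied outside the tissue that expresses them.

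Long non-coding RNAs are transcripts that are not read into protein. Many act through the proteins, RNAs or chromatin they bind, and alternative splicing can give isoforms with different binding partners. BCYRN1, also called BC200, is a short primate RNA made by RNA polymerase III and derived from an Alu element. It is best known from neurons, where it binds the Alu-domain proteins of the signal recognition particle and poly(A)-binding protein and represses translation initiation, and it is also found in tumours and dividing cell lines. RN7SL1 and RN7SL3 encode 7SL RNA, the RNA scaffold of the signal recognition particle, from which Alu elements descend.

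No gene passed the threshold between CU1ENC and CU1ENU. Of 19316 genes tested, 0 (0.00%) had a Benjamini-Hochberg adjusted p under 0.05 in edgeR's quasi-likelihood test, and 527 (2.73%) had an unadjusted p under 0.05, where chance alone would give 966. Of the 527, 295 (1.53% of all tested) were higher in CU1ENC and 232 (1.20%) lower. With 2 libraries against 2, an exact permutation test of 1 gene cannot give a p below 0.333. The edgeR fit shares its spread over all 16 libraries, and its intervals were narrow for most well-counted genes. There were 10816 genes averaging at least 10 CPM (read counts scaled to a common library size). The 95% interval of the fold change stayed inside 2-fold for 99.4% of these and inside 1.5-fold for 97.5%. Such intervals cover only the variation among these libraries, which may be technical. Differences within replicate pair 1 and pair 2 were nearly unrelated across the 14533 genes with a mean log2 CPM of at least 1 (Pearson r = 0.03 across genes, which are not independent replicates). With a prior count of 2 added before the logarithm, 1 gene of these 14533, BCYRN1, differed at least 2-fold in the same direction in both pairs. RN7SL3 was just short on that scale, at 1.26 and 0.99 (log2), though its plain CPM ratios passed 2.

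**Figure D1:**
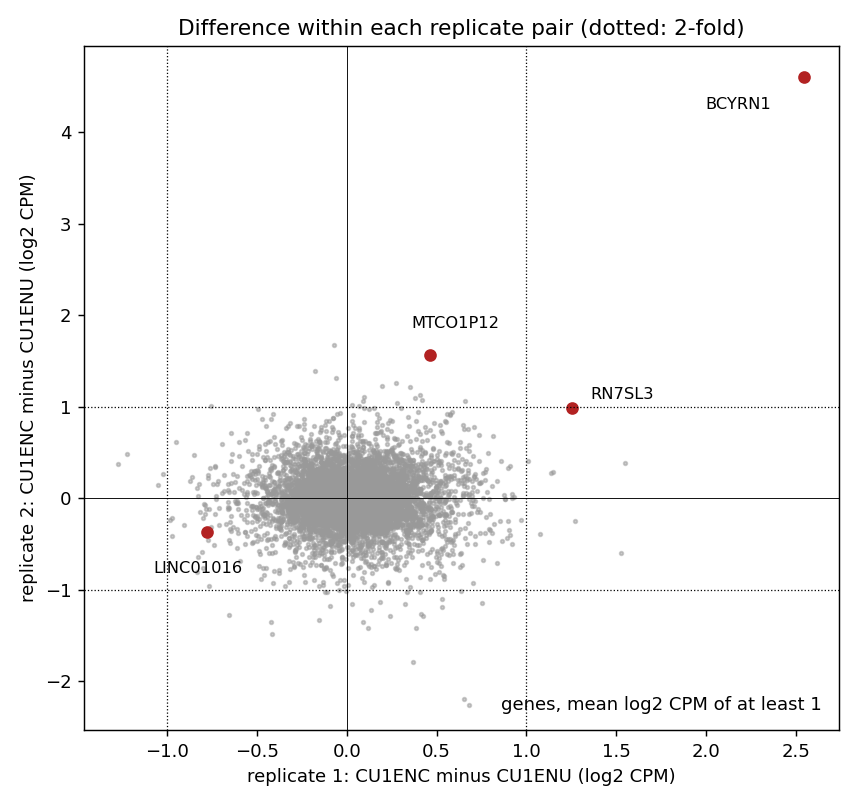
Each point is a gene with mean log2 CPM of at least 1, placed by its CU1ENC minus CU1ENU difference in log2 CPM in the replicate 1 pair (x) and the replicate 2 pair (y); dotted lines mark 2-fold. BCYRN1 is alone in the upper right corner, at 2.55 and 4.60, while the other genes centre on 0 with SDs of 0.19 and 0.22.

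BCYRN1 (ENSG00000236824, plus strand of chromosome 2) had 1264 and 2426 counts in the CU1ENC libraries and 220 and 94 in the CU1ENU libraries. In CPM this was 81.9 and 152 in CU1ENC against 13.9 and 6.14 in CU1ENU, so the groups did not overlap. CU1ENC averaged 117 ± 49.8 CPM and CU1ENU 10.0 ± 5.50 (SD, n = 2 each). The fold was 5.88 in pair 1 (95% counting interval 5.09 to 6.82) and 24.8 in pair 2 (20.2 to 30.8), and counting intervals cover counting error only. The fitted log2 fold change was 3.61 ± 0.96 SE (95% interval 1.35 to 5.88), a 12.2-fold difference. By edgeR its unadjusted p was 0.00681, which ranked 44th, and its adjusted p was 1.00. BCYRN1 was thus first by size of difference among the 14533 genes and did not pass.

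Beside the other groups, CU1ENC stood apart more than CU1ENU did. In the 10 libraries of empty vector, T1, T2, CU1 and CU2, BCYRN1 ran from 4.32 to 8.86 CPM with a median of 5.04. The order of group means was CU1ENC 117, parental 33.0, CU1ENU 10.0, T2 6.59, T1 5.98, CU2 5.94, empty vector 5.92 and CU1 4.55. From parental cells down, neighbours in this order overlapped or differed by less than the larger of their SDs. The second CU1ENU library, at 6.14 CPM, lay inside the range of the 10, and the first, at 13.9, above it. Against the mean of those 5 groups, CU1ENC was higher by 4.39 ± 0.60 on the log2 scale (edgeR unadjusted p = 0.000144, adjusted p = 0.694), and CU1ENU by 0.78 ± 0.90 (adjusted p = 1.00). These comparisons share the same 5 groups.

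The parental libraries differed from each other in BCYRN1. Parental replicate 1 had 1026 counts (60.7 CPM) and parental replicate 2 had 85 (5.18 CPM), a within-group gap that enters the spread shared over all 16 libraries. In a fit of the 14 transfected libraries alone, CU1ENC against the 5 groups was 4.32 ± 0.30 with an edgeR adjusted p of 0.0469. Leaving out parental replicate 1 alone gave 4.32 ± 0.30 and an adjusted p of 0.0501, which did not pass. CU1ENC against CU1ENU stayed at an adjusted p of 1.00 in the 14-library fit (3.49 ± 0.47, unadjusted p = 0.000268). DESeq2 called CU1ENC against the 5 groups (4.37, adjusted p = 1.05e-05) and gave CU1ENC against CU1ENU an adjusted p of 1.00 (3.61 ± 0.94, unadjusted p = 0.000116). Of the 19316 genes, 1 (0.00518%) passed in CU1ENC against the 5 groups and 1 (0.00518%) in CU1ENU, in both cases LINC01016 itself. That call follows from the design, since the 5 groups include the empty vector, at 0.0613 and 0 CPM of LINC01016.

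**Figure D2:**
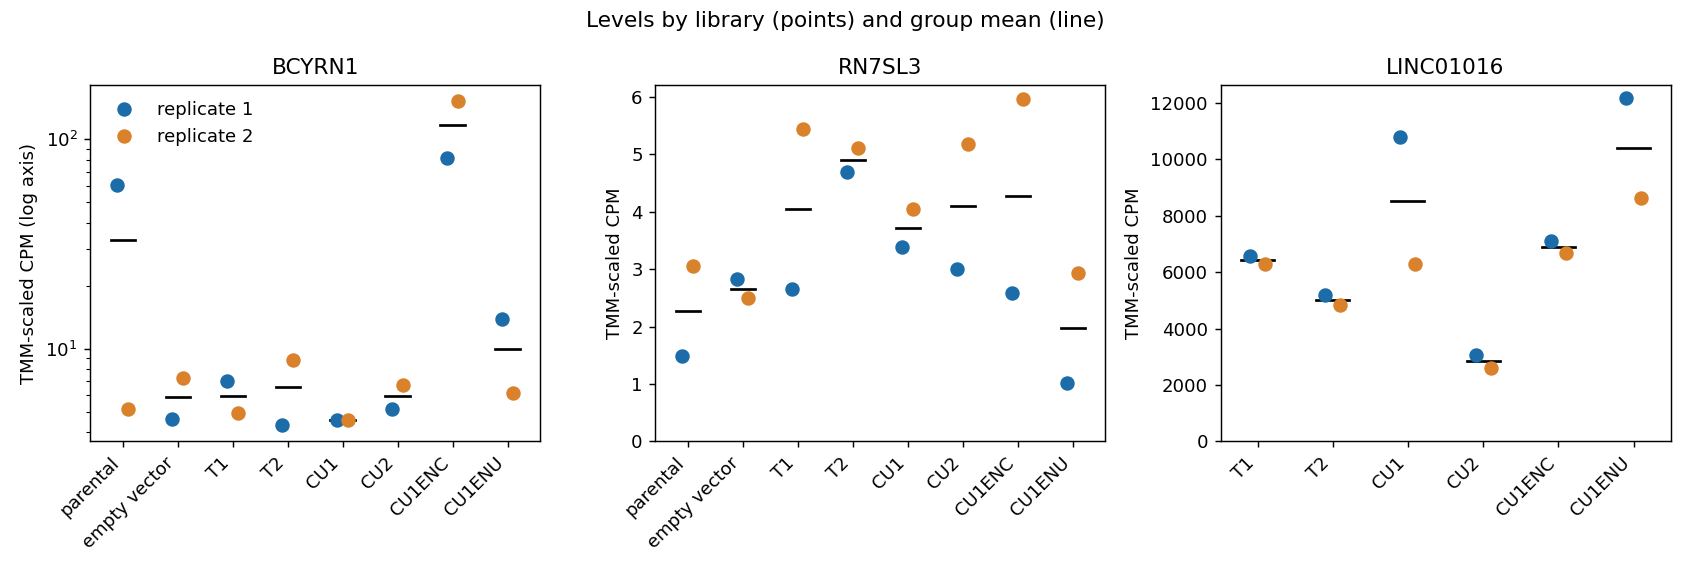
Points are TMM-scaled CPM of BCYRN1 (log axis), RN7SL3 and LINC01016 in each library, coloured by replicate, and lines are group means; LINC01016 is shown for the 6 transcript groups. BCYRN1 is high in both CU1ENC libraries (81.9 and 152) and in parental replicate 1 (60.7), and LINC01016 is higher in both CU1ENU libraries than in both CU1ENC libraries.

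BCYRN1 lies inside the span of EPCAM-DT, a non-coding gene on the opposite strand. EPCAM-DT had 145 counts in all 16 libraries, of which 12 and 9 fell in CU1ENC and 13 and 3 in CU1ENU. Of the 27 genes within 500 kb of BCYRN1, 11 were tested, and 0 had an unadjusted p under 0.05 (2.73% of all genes did). Their median log2 fold change was -0.03, beside -0.00 over all genes. EPCAM, the epithelial adhesion molecule, stood at 0.01 ± 0.06 (SE) and CALM2, a calmodulin gene, at -0.08 ± 0.06. Alu-derived copies of BCYRN1 sequence occur across the genome, and how reads that fit several places were counted is not given in the sources used here, so its level is uncertain.

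Besides BCYRN1, 2 RNAs made by polymerase III had enough counts to test, both of them 7SL genes. Of 26 such RNAs listed, 20 were in the table. Of these, 11 had 0 counts in all 16 libraries, including the 7SK RNA gene RN7SK, the RNase MRP RNA RMRP and the Y RNA genes RNY1, RNY3 and RNY4, and 6 had too few counts to test. The 7SL genes RN7SL1 and RN7SL3, both on chromosome 14, are close copies that can exchange reads. RN7SL3 had 40 and 95 counts in CU1ENC and 16 and 45 in CU1ENU. That is 2.59 and 5.96 CPM against 1.01 and 2.94, so the groups overlapped while each CU1ENC library exceeded its same-numbered partner, by 2.56-fold and 2.03-fold. The fitted log2 difference was 1.12 ± 0.33 (edgeR unadjusted p = 0.00180, adjusted p = 1.00). The other 5 groups ran from 2.50 to 5.44 CPM, and against their mean CU1ENU was at -0.999 ± 0.27 and CU1ENC at 0.12 ± 0.23, with an edgeR adjusted p of 1.00 for each. Of the CU1ENU libraries the first lay below that range and the second inside it. RN7SL1, the abundant 7SL copy, was at 177 and 152 CPM in CU1ENC and 132 and 224 in CU1ENU (-0.12 ± 0.35), higher in one pair and lower in the other.

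Genes for the polymerase III apparatus and for the partners of BCYRN1 were mostly just below 0, and none passed. Over all genes tested 9750 of 19316 were below 0 and 26.3% were lower in both pairs. Of 30 genes for polymerase III subunits and its transcription factors, 9 were above 0 and 21 below, with 4 higher and 6 lower in both pairs, a median log2 fold change of -0.01 and 0 at an unadjusted p under 0.05. GTF3C2, a subunit of the polymerase III factor TFIIIC, was at 89.9 and 84.7 CPM in CU1ENC against 89.3 and 94.4 in CU1ENU. Of 17 genes for proteins that bind BCYRN1 RNA, 4 were above 0 and 13 below (median -0.02), and 1 was higher and 7 lower in both pairs, again with 0 at an unadjusted p under 0.05. Among them EIF4B, which assists the initiation helicase, was at -0.10 ± 0.06 and the RNA-binding protein gene HNRNPA1 at -0.06 ± 0.06. The translation initiation list shares at least EIF4B with the list before it, so the counts of the lists are not separate. Of 28 translation initiation genes 5 were above 0 and 23 below, and 2 were higher and 13 lower in both pairs. Their median was -0.02, with EIF5B, which joins the ribosomal subunits, at -0.13 ± 0.07. Of 11 signal recognition particle and translocon genes 4 were above 0 and 7 below, 1 was higher and 6 lower in both pairs, and the median was -0.02, with SRP68 at -0.10 ± 0.06.

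LINC01016 (ENSG00000249346, minus strand of chromosome 6, 33867506 to 33896914, GRCh38.p13, 5055 exonic bases) was lower in CU1ENC than in CU1ENU. The CU1ENC libraries held 109776 and 106548 counts and the CU1ENU libraries 192244 and 132205. This came to 7110 and 6686 CPM in CU1ENC and 12165 and 8637 in CU1ENU, without overlap, or 6898 ± 300 against 10401 ± 2495 (SD, n = 2). The ratio was 0.584 in pair 1 (95% counting interval 0.580 to 0.589) and 0.774 in pair 2 (0.768 to 0.780). The fitted log2 difference was -0.57 ± 0.19 (95% interval -1.02 to -0.12, edgeR unadjusted p = 0.0209, adjusted p = 1.00), which did not pass. LINC01016 took 0.730% and 0.651% of all counts in CU1ENC and 1.23% and 0.842% in CU1ENU. Gene counts add reads over all annotated exons, so a longer transcript or one with more annotated exons gives more counts per molecule, and the part of this in the difference was not tested. In bulk RNA, fewer transfected cells and less transcript per cell cannot be told apart.

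The order of BCYRN1 did not follow that of LINC01016. CU1, with 8536 ± 3170 CPM of LINC01016, had the lowest BCYRN1 mean at 4.55 CPM. T1, at 6441 ± 198 CPM of LINC01016, lay near CU1ENC and had 5.98 ± 1.49 CPM of BCYRN1 against 117 ± 49.8. LINC01016 was far lower in CU2 (2843 ± 320 CPM) than in CU1ENU, and the 2 groups had BCYRN1 means of 5.94 and 10.0 CPM.

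The gene on the strand opposite LINC01016, ENSG00000233183, was at 574 and 291 CPM in CU1ENC and 776 and 347 in CU1ENU. Here the groups overlapped, and the second replicate was lower than the first in both. The fitted log2 difference was -0.36 ± 0.33 (edgeR adjusted p = 1.00). As a percentage of the LINC01016 counts of the same library it came to 8.08 and 4.36 in CU1ENC and 6.38 and 4.02 in CU1ENU. In parental cells the gene was at 0 and 0 CPM, and in empty vector cells at 0.123 and 0. Its signal thus appeared only in cells given a transcript, with group means from 92.3 CPM in CU2 to 561 in CU1ENU. The spans of this gene and LINC01016 overlap on opposite strands, so reads that lost their strand mark cannot be told apart from antisense transcription. Of 35 genes within 500 kb of LINC01016, 19 were tested, 10 of them above 0 and 9 below, with a median log2 fold change of 0.01.

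Below BCYRN1, the genes of lowest p showed small differences. Non-overlapping groups are common by this measure: 1883 genes (9.75%) were higher in both CU1ENC libraries than in both CU1ENU libraries and 1945 (10.1%) lower. All genes described next are non-overlapping by the rule that chose them, and all had an edgeR adjusted p of 1.00. EMC9, a subunit of the membrane protein insertion complex of the endoplasmic reticulum, had the lowest p of those higher in CU1ENC under that rule, which also asks for a mean log2 CPM of at least 1. It was at 38.7 and 38.7 CPM against 30.8 and 31.6 (0.31 ± 0.09, unadjusted p = 0.00163). The other 5 groups ran from 32.2 to 38.9 CPM for EMC9, which includes CU1ENC and leaves both CU1ENU libraries below.

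SLC39A4 was also nearer to the 5 groups in CU1ENC than in CU1ENU. This gene, for a zinc importer, was at 8.55 and 6.46 CPM against 3.80 and 5.29, and against the mean of the other 5 groups CU1ENC was at 0.23 ± 0.16 (SE, log2) and CU1ENU at -0.48 ± 0.17. MRPL43, of the mitochondrial ribosome, was at 60.9 and 61.7 CPM against 50.2 and 55.4 (0.22 ± 0.07). HDAC10, a polyamine deacetylase, stood the other way: 8.61 and 5.40 CPM in CU1ENC against 4.94 and 3.79 in CU1ENU, with a median of 4.76 in the other 5 groups. NME2, a nucleoside diphosphate kinase that shares reads with its neighbour NME1, was at 5.83 and 6.40 CPM against 3.61 and 3.72. RPL22L1, a ribosomal protein paralogue, was at 17.4 and 18.8 against 14.05 and 13.3.

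Of the higher genes chosen for the size of their difference, MTCO1P12 was at 9.46 and 10.1 CPM in CU1ENC and 6.83 and 3.33 in CU1ENU (1.00 ± 0.32). It is a nuclear pseudogene copy of mitochondrial MT-CO1, so its reads cannot be kept apart from the mitochondrial gene with certainty. RPL21P28, a ribosomal protein pseudogene with the same uncertainty, was at 0.91 ± 0.32. PARD6G-AS1, an antisense RNA, and JMJD7-PLA2G4B, a readthrough of neighbouring genes, were both at 0.78, with SEs of 0.33 and 0.34. Each of these 3 was below 4 CPM in all 4 libraries.

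Among genes lower in CU1ENC under the same rule, MRPS27, of the small mitochondrial ribosomal subunit, had the lowest p. It was at 71.9 and 75.4 CPM against 85.9 and 87.1 (-0.23 ± 0.07, edgeR unadjusted p = 0.00230). GCFC2, a splicing-related factor, was at 43.6 and 40.2 CPM against 53.8 and 46.8. CAPG, which caps actin filaments, was at 5.89 and 3.70 CPM against 8.16 and 6.73 (-0.65 ± 0.20). KIF20A, a kinesin of late mitosis, was at 80.1 and 90.8 CPM against 92.8 and 105. MINDY1, a deubiquitinase, LONP2, a peroxisomal protease, and TMTC1, a mannosyltransferase, stood at -0.39 ± 0.13, -0.19 ± 0.06 and -0.25 ± 0.08. Against the other 5 groups MRPS27 was at -0.13 ± 0.06 (SE) in CU1ENC and 0.10 ± 0.05 in CU1ENU, and MINDY1 at -0.32 ± 0.10 and 0.07 ± 0.09.

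The remaining lower genes, most of them chosen by the rule for size, were weakly expressed. Larger still was RPL18AP3, a ribosomal protein pseudogene, at -1.36 ± 0.73, whose groups overlapped. NXPH2, a neurexophilin, was at 7.25 and 7.59 CPM in CU1ENC and 10.2 and 11.6 in CU1ENU (-0.55 ± 0.19). TAFA5, a secreted brain peptide, was at 2.91 and 1.07 CPM against 3.92 and 3.20 (-0.88 ± 0.34). DGAT2, an enzyme of triglyceride synthesis, was at 2.33 and 1.13 CPM against 3.16 and 3.07 (-0.87 ± 0.34). TMEM74, an autophagy-linked membrane protein, ITGA8, an integrin subunit, and KSR2, a kinase scaffold of the Ras pathway, ranged from -0.74 to -0.77. ITGA8 had the widest error of these, 0.44, with an unadjusted p of 0.102.

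**Figure D3:**
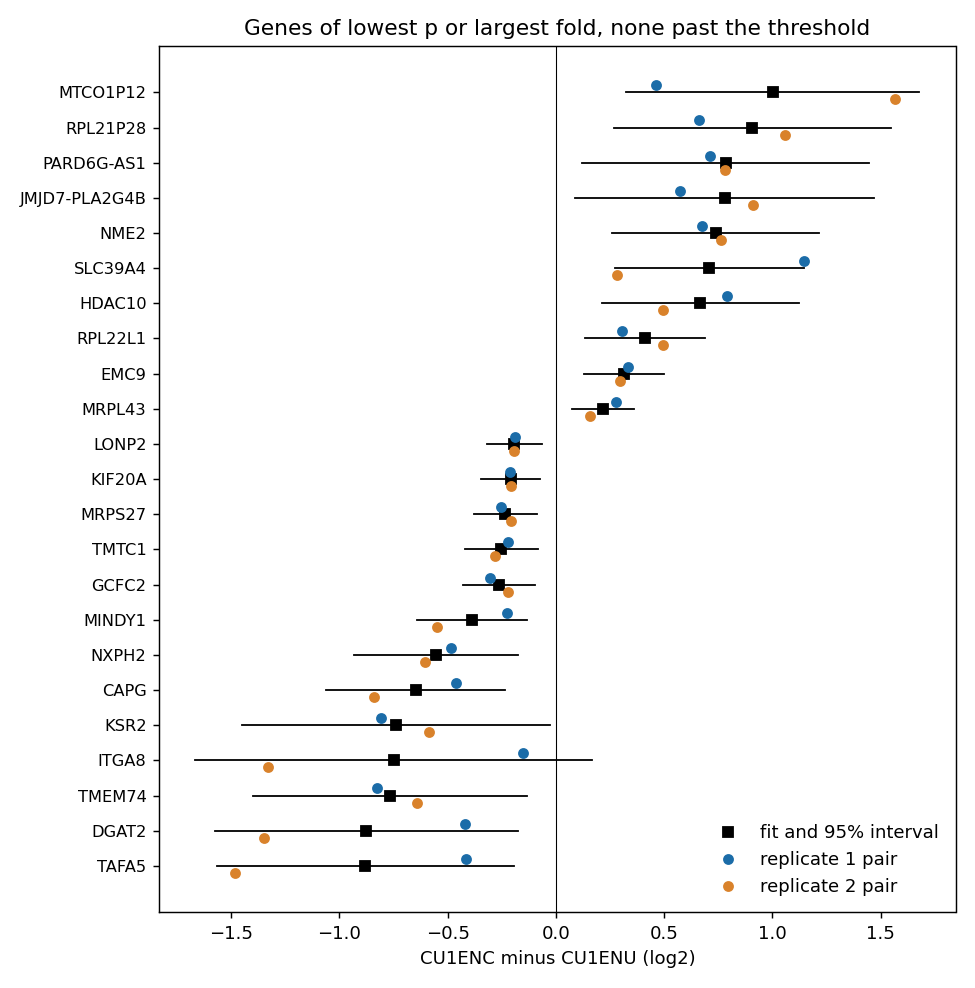
Squares with lines are fitted CU1ENC minus CU1ENU log2 fold changes with 95% intervals for the genes of lowest p or largest size described in the text, and circles are the differences within each replicate pair. The genes sit between -0.88 (TAFA5) and 1.00 (MTCO1P12), every pair lies on the side of its fit because the rule required it, and none passed after adjustment.

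Gene lists for stress, immune and growth programmes were compared by their counts. In all genes tested, 25.1% were higher in CU1ENC in both pairs and 26.3% lower in both, and the median log2 fold change was -0.00. No member of any of the 31 lists passed. The 13 protein-coding genes of mitochondrial DNA had the highest median, 0.21, of the lists with at least 10 tested members. All 13 were above 0, 11 were higher in both pairs and 0 had an unadjusted p under 0.05 (lowest edgeR p 0.379). Groups did not overlap for 8 of the 13, where 9.75% of all genes were higher without overlap. A fit of the 4 libraries alone had 1 residual degree of freedom and no gene-specific spread. It called members of this list, counted in the last section beside its calls over all genes. The mitochondrial genes come from shared precursor transcripts and move together, so 13 genes are not 13 independent observations. MT-CO1, a subunit of cytochrome oxidase, was at 4688 and 3997 CPM in CU1ENC and 4310 and 3341 in CU1ENU (0.19 ± 0.21). MT-ND4, of complex I, was at 1638 and 1633 against 1530 and 1309 (0.22 ± 0.27), and without CU1ENC replicate 2 its difference was -0.030. The mean log2 CPM of the list was 9.52 and 9.57 in CU1ENC and 9.43 and 9.29 in CU1ENU, inside the gap between the 2 parental libraries, at 9.99 and 8.88.

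Nuclear genes of the respiratory chain did not share the size of that shift. Of 73 tested, 51 were above 0 with a median of 0.03, and 29 were higher in both pairs against 12 lower in both. COX8A, another cytochrome oxidase subunit, was at 73.8 and 99.5 CPM in CU1ENC and 71.2 and 81.4 in CU1ENU (0.18 ± 0.09). Cytosolic ribosomal protein genes had a median of 0.05, with 45 of 80 higher in both pairs and 9 lower in both. RPS28, of the small subunit, was at 132 and 117 CPM against 117 and 108 (0.15 ± 0.07, edgeR unadjusted p = 0.0336). Replication-dependent histone genes had a median of 0.15 over 34 tested of 50 listed, 17 of them higher in both pairs. H2BC11 was at 13.3 and 14.7 CPM against 11.3 and 11.8 (0.28 ± 0.14), and histone copies of near-identical sequence can exchange reads.

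Heat shock and chaperone genes had the lowest median of those lists, -0.06, followed by the G2 and mitosis genes. Of 25 chaperone genes tested, 22 were below 0, 17 were lower in both pairs and 3 were lower at an edgeR unadjusted p under 0.05. Over all genes, 26.3% were lower in both pairs and 1.20% were lower at that p. The median difference of the list was -0.07 in pair 1 and -0.04 in pair 2. Its mean log2 CPM was 6.90 and 7.11 in CU1ENC and 7.03 and 7.11 in CU1ENU, so the replicate 2 means were nearly equal. HSPA8, the constitutive cytosolic HSP70, was at 1011 and 1142 CPM in CU1ENC and 1123 and 1234 in CU1ENU (-0.13 ± 0.06). HSPA4, a nucleotide exchange factor for HSP70, was at 286 and 301 against 309 and 336, and HSPD1, the mitochondrial chaperonin, at 718 and 887 against 800 and 931. For HSPA8 and HSPD1 the groups overlapped. Of 30 G2 and mitosis genes, 22 were below 0 and 15 lower in both pairs. ASPM, a spindle pole protein, was at 136 and 128 CPM against 148 and 145 (-0.15 ± 0.06).

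**Figure D4:**
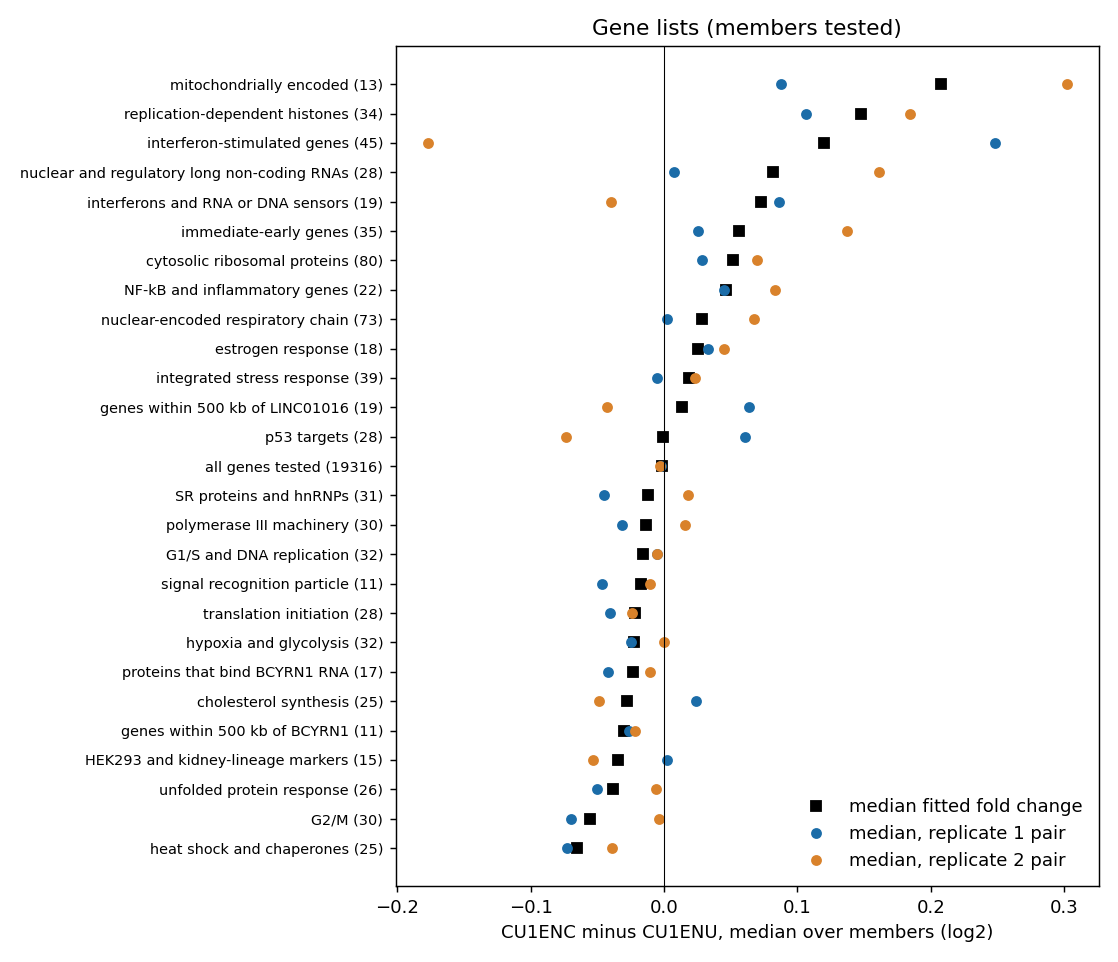
For each gene list with at least 10 tested members (number in brackets), the square is the median fitted CU1ENC minus CU1ENU log2 fold change and the circles are the medians of the differences within each replicate pair. Medians run from -0.06 (heat shock, and G2 and mitosis) to 0.21 (mitochondrially encoded), and the interferon-stimulated genes have pair medians on opposite sides of 0.

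Interferon-stimulated genes, the antiviral programme that foreign nucleic acid can switch on, went opposite ways in the pairs. Of 45 tested, 44 were higher in CU1ENC in pair 1 (median 0.25) and 35 were lower in pair 2 (median -0.18). The fitted median was 0.12, 0 members had groups without overlap and 0 had an unadjusted p under 0.05. By library, the mean log2 CPM of the list was 5.88 and 3.41 in CU1ENC and 5.62 and 3.61 in CU1ENU. The gap between replicates of 1 group was thus several times the gap between the groups. IFITM2, which blocks viral entry, was at 27.9 and 20.1 CPM in CU1ENC and 24.4 and 17.3 in CU1ENU (0.20 ± 0.17), higher in replicate 1 of both groups. Among 22 NF-kB and inflammatory genes the median was 0.05, and TNFAIP3, a feedback inhibitor of NF-kB, was at 24.9 and 25.7 CPM against 22.2 and 21.3 (0.22 ± 0.11).

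**Figure D5:**
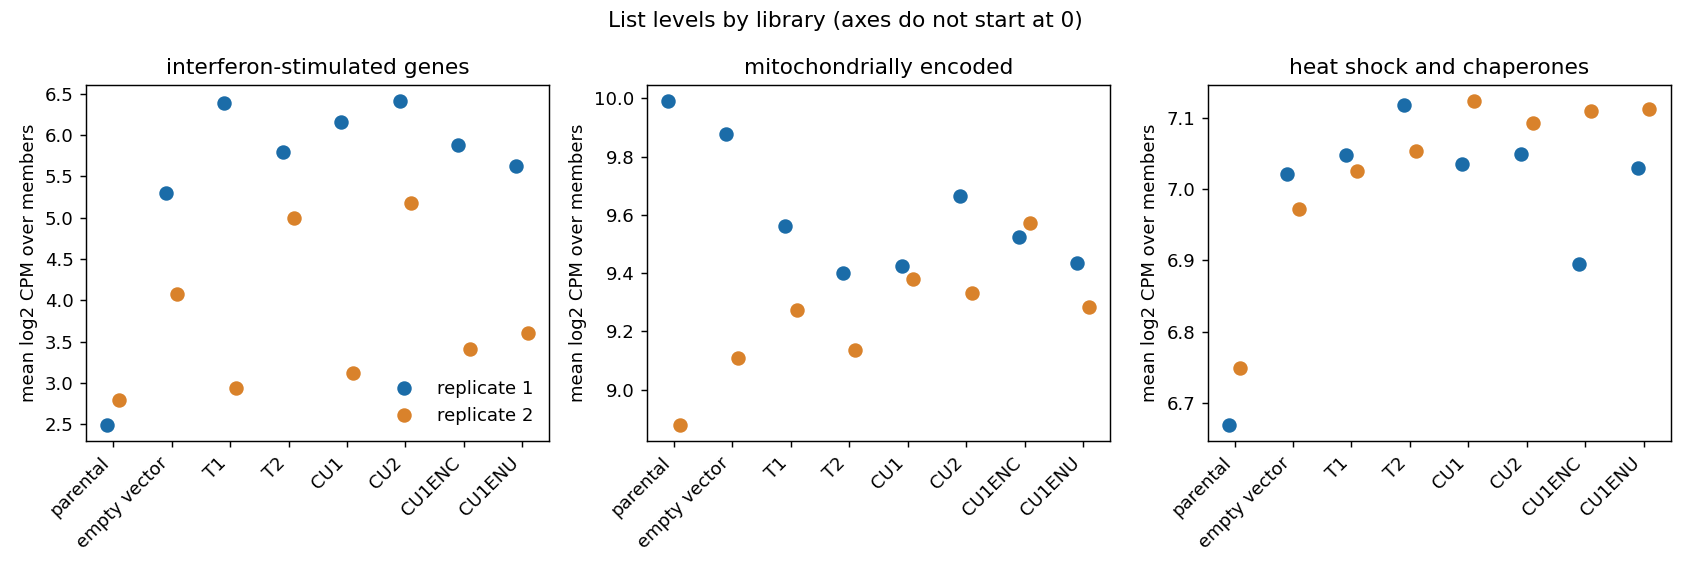
Points are the mean log2 CPM over the members of 3 lists in each library, coloured by replicate; axes do not start at 0. Interferon-stimulated genes differ between replicates 1 and 2 in both groups (5.88 and 3.41 in CU1ENC, 5.62 and 3.61 in CU1ENU) more than between the groups.

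Immediate-early genes, which respond first to growth and stress signals, had a median of 0.06 over 35 tested, with 16 higher in both pairs and 2 lower in both. KLF6, a zinc finger factor, was at 104 and 90.7 CPM in CU1ENC and 89.9 and 84.0 in CU1ENU (0.16 ± 0.07). The integrated stress response had a median of 0.02 over 39 genes, with SESN2, an amino acid sensor, at 0.17 ± 0.08. The unfolded protein response was at -0.04 over 26 genes, with ATF6, one of its membrane sensors, at -0.12 ± 0.07. The G1/S and replication list, at -0.02 over 32 genes, and the cholesterol synthesis list, at -0.03 over 25, had 0 members at an unadjusted p under 0.05. The hypoxia and glycolysis list had a median of -0.02 over 32 genes, with 7 higher and 11 lower in both pairs. Its member of lowest p, EGLN3, an oxygen-sensing hydroxylase, was at 9.84 and 5.90 CPM against 12.1 and 9.67 (-0.49 ± 0.17, edgeR unadjusted p = 0.00831, adjusted p = 1.00). The EGLN3 groups overlapped. Of 28 nuclear and regulatory long non-coding RNAs 25 were above 0 (median 0.08), where 9566 of all 19316 genes were. Of the 28, 9 were higher and 2 lower in both pairs, and the median was 0.01 in pair 1 and 0.16 in pair 2, with GAS5, a snoRNA host, at 0.16 ± 0.07 and MALAT1, of nuclear speckles, at 0.18 ± 0.09.

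The 5 genes whose log2 CPM most resembled that of BCYRN1 over the 16 libraries were PKD1P5 (Pearson r = 0.75), GLI2 (0.74), VAX2 (0.71), TRIM16 (0.71) and RCN3 (0.70). They are a description, as the 16 libraries share groups and BCYRN1 is set by few of them. PKD1P5, a pseudogene of the polycystin gene PKD1, was at 9.72 and 8.47 CPM in CU1ENC against 8.35 and 7.06 in CU1ENU, and at 5.92 to 7.85 in the other 5 groups. GLI2, a transcription factor of Hedgehog signalling, was at 19.8 and 18.6 against 16.2 and 16.5. None came near the size of the BCYRN1 difference.

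Totals in the 4 libraries were 15040770 and 16375455 counts in CU1ENC and 15596446 and 15706828 in CU1ENU. Markers of HEK293 and kidney lineage were present, with a summed level of 2758 to 3108 CPM over 16 genes in CU1ENC and 2899 to 3198 in CU1ENU. Most of this was VIM (1213 to 1432 CPM) and KRT8 (759 to 874), filament genes of many cell types. Of the kidney developmental factors PAX2 was at 2.01 to 5.70 CPM and PAX8 at 3 counts over the 4 libraries. Leukocyte and erythroid markers summed to 7.59 to 8.48 CPM and 8.61 to 9.47, with PTPRC, HBB and MS4A1 at 0 counts in all 4. Fibroblast markers summed to 1152 to 1170 CPM and 1108 to 1183, of which FN1, a fibronectin that epithelial lines also make, was 1033 to 1109, while DCN was at 0. Keratinocyte and other epithelial markers summed to 824 to 1019 CPM and 860 to 941, of which KRT17 was 541 to 707, EPCAM 124 to 128 and KRT19 72.4 to 86.2, while KRT1 was at 0.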

How the data were processed

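The values are raw counts of reads for each gene, as deposited by the authors. They came from featureCounts 2.0.1 (paired reads, strand option 2, Ensembl release 101), per the file headers. Per the submitters' processing notes, HISAT2 and DESeq2 were used with build GRCh38.p13, with settings not given in the sources used here. RNA integrity numbers were above 9, and libraries were strand-specific (dUTP), per the labels' protocols. Of 60671 genes, 60401 were given a symbol by identifier.

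Genes were kept by filterByExpr (minimum count 10, minimum total 15), leaving 19316, and scaled by TMM factors of 0.974 to 1.03. edgeR 4.0.16 in R 4.3.3 fitted 8 group means and a replicate block over all 16 libraries (7 residual degrees of freedom, common dispersion 0.00436), with robust quasi-likelihood F-tests and a threshold of adjusted p under 0.05. SE is the absolute log2 fold change over the square root of F, and CPM are TMM-scaled. Within-pair log2 differences use a prior count of 2. No label says what a replicate number marks. Deviations from the group means correlated between libraries of the same number for each of 28 group pairs (lowest r 0.162, and 0.442 for CU1ENC with CU1ENU), so the numbers pair the libraries. Replicates differed beyond sampling noise (chi-square per degree of freedom 16.2 in CU1ENC and 12.3 in CU1ENU). The test was also run on counts simulated from its own fit, which cannot show its behaviour where these data depart from that fit.

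DESeq2 1.42.0, the 4 or 14 libraries alone, no block, no filter and single libraries left out were alternatives. Added after seeing the data were DESeq2 without the block and leaving out parental replicate 1. The marker BCYRN1, the list members, the lists and the rules were chosen with earlier results of these data known. LINC01016, ENSG00000233183 and BCYRN1 were fixed as named genes. Others were the 8 of lowest p and 6 largest fold changes each way among non-overlapping genes. Those genes also had a mean log2 CPM of at least 1 and no clone name. Added to them were the leading 3 of each list in the direction of its median, and the 5 most like BCYRN1. Only part of those per list are described, and RN7SL1, EPCAM, EPCAM-DT and the marker genes were named for their role. Some genes and sequences are not reported here.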

Additional observations from a re-analysis of the deposited data

How the results depend on the processing

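The count of genes past the threshold between CU1ENC and CU1ENU was 0 in edgeR with the replicate block, 0 without the replicate block (200 at an unadjusted p under 0.05 against 527), and 0 in DESeq2 with the block (213) and without it (90). It was 30 when only the 4 libraries were fitted, 29 higher and 1 lower. Of the 30, 21 were members of the lists not set by position, including 10 of the 13 mitochondrially encoded genes. For scale, the main fit tested 19316 genes, of which 776 were in the 31 lists, the 2 set by position included. The 4-library fit, which filtered its genes anew, has 1 residual degree of freedom and estimated no gene-specific spread. That fit called ENSG00000233183 at -0.34. Without the filter it was 1 (MTCO1P12), and leaving out single libraries gave 0 to 1, the 1 being RPL18AP3 without CU1ENU replicate 1. For CU1ENC against the other 5 groups the count of 1 became 2 in the 14 transfected libraries and 2 without the filter. It became 3 in DESeq2, with or without the block. For CU1ENU against the 5 groups the count of 1 became 2 in DESeq2. With single libraries left out, LINC01016 did not always pass in these comparisons, and the gene called could be another. It was RPL18AP3, at 2.83, for CU1ENU without its replicate 1, and ENSG00000217130, at 3.74, for CU1ENC without its replicate 2. The log2 fold change of BCYRN1 was 2.75 to 4.34 with single libraries left out; against the other 5 groups it passed at 4.32 in the 14 libraries and at 4.37 and 4.35 in DESeq2 with and without the block, and ran from 3.49 to 5.09 with single libraries left out, and from 0.18 to 1.19 for CU1ENU. LINC01016 ran from -0.70 to -0.45 and ENSG00000233183 from -0.674 to 0.046. Signs reversed for ENSG00000233183 without CU1ENU replicate 1, for RN7SL1 (-0.51 to 0.38) without CU1ENU replicate 2 and for MT-ND4 (-0.030 to 0.44) without CU1ENC replicate 2. The cause was not tested. Of 104 list medians, 21 moved by more than the spread between pairs. With 2 libraries a group, genes under about 10 CPM are poorly bounded: over all genes, 75.2% had intervals inside 2-fold.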
